A study of Mus musculus with 4 samples.

Results

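The genes described here are 10 genes of fat breakdown in mouse liver: the patatin-like phospholipase family members Pnpla2, Pnpla3, Pnpla5, Pnpla7 and Pnpla8, the neutral lipases Lipe and Mgll, the lysosomal acid lipase Lipa, the lipase coactivator Abhd5 and the lipoprotein lipase Lpl. They were taken by name from the array annotation, as every probe that is not a control and carries one of these gene names. This gave 17 of the 39429 probes and 10 of the 30199 gene names on the array. Not every member is an intracellular lipase: Abhd5 is known as a coactivator with no triglyceride lipase activity of its own, and Lpl is secreted and acts on the wall of blood vessels.

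The livers came from female C57B/6 mice of 8 to 10 weeks on chow, taken after a 4 hour fast and 1 week after the injection of an adeno-associated virus. Mice given AAV_Cre, a virus that carries Cre recombinase, stood for a liver-specific loss of Trib1, and mice given AAV_Null, a control virus, stood for wild type. Both groups were homozygous for a floxed allele of Trib1, so the AAV_Null mice carry it too. The labels give neither the promoter that drives Cre nor the part of Trib1 that is floxed, and it is not stated how many animals went into a sample. Whole-liver RNA was hybridised to 4 Agilent 2-colour arrays of 1 slide, each with 1 RNA of each group. AAV_Cre was in the red dye Cy5 on arrays 1 and 2 and in the green dye Cy3 on arrays 3 and 4. The study set out to learn what loss of hepatic Trib1 does to lipid synthesis through the transcription factor C/EBPα.

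In the cells of the liver, triglyceride is stored in lipid droplets and is taken apart one fatty acid at a time. Pnpla2 (adipose triglyceride lipase), helped by Abhd5, removes the first fatty acid, Lipe (hormone-sensitive lipase) acts mainly on the resulting diglyceride, and Mgll takes the last one from the monoglyceride. Lipa digests cholesteryl esters and triglycerides that reach the lysosome by endocytosis or autophagy. Pnpla3 sits on the droplet surface and is a known gene of human fatty liver disease; in mouse liver it is known to rise with feeding under control of the lipogenic factors SREBP-1c and ChREBP.

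Of 43020 spots that were not controls, between 51.0% and 58.7% were well above background in a channel, and 0 were saturated. Across probes, which are not independent replicates, the ratios of the 2 arrays with AAV_Cre in Cy5 had a correlation of 0.64 and those of the 2 with it in Cy3 one of 0.48, while pairs of arrays with opposite dyes had 0.07 to 0.19. Both Trib1 probes of its RefSeq transcript were higher in RNA labelled AAV_Cre, by 0.94 ± 0.08 and 1.29 ± 0.11 on the log2 scale (SE, n = 4 arrays), at adjusted p of 0.0239 and 0.0243 in limma, while a probe of an Ensembl transcript had -0.05. These values run against the label unless both probes lie outside the floxed part, which is not given. Directions below are therefore those of the labels, and the Trib1 values do not back them. The hepatocyte markers were well above background for 8 of 8 genes, and 0 of them passed the test. Before adjustment, 3 of the 8 had p under 0.05 in limma, against 22.2% of all fitted probes. The difference between dye orientations passed for Alb, Apoc3, Serpina1a and Ttr (limma, adjusted p of 0.0363, 0.0432, 0.0296 and 0.0449), as for 1.62% of all fitted probes. Alb had log2 ratios of 0.39, 0.27, -0.95 and -1.27 on arrays 1 to 4.

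Among the lipase genes, Pnpla3 and Abhd5 rose in RNA labelled AAV_Cre and no other member that could be fitted passed the test. Pnpla3 was 2.38-fold higher by its probe well above background in all 8 channels, and Abhd5 was 1.51-fold higher by the brightest of its 3 probes. A second Pnpla3 probe also passed, but it was well above background in 1 of 4 AAV_Null channels and so entered the test through the AAV_Cre channels. Of the hydrolases of the classical chain, Lipe and Mgll had log2 ratios of 0.27 to 0.35 and did not pass, and Pnpla2 could not be fitted because of spots marked as outliers. Lipa had -0.05. Of the 13 member probes that could be fitted, 3 were called higher and 0 lower at an adjusted p of 0.05 in limma, against a background of 1.55% of all 20337 fitted probes called higher and 0.821% called lower, or 2.37% in either direction. Among the 11 member probes that were tested when all 8 channels had to be well above background, 2 were called. Under that filter 666 of 18578 probes were called over the whole array, and the second Pnpla3 probe was not among those tested. By 1 probe a gene, 2 of 8 fitted members were called, both higher, against 2.76% of all 16081 fitted genes, or 1.78% called higher and 0.976% called lower. The median log2 ratio of the fitted member probes was 0.32, beside -0.0017 for all fitted probes. Before adjustment, 10 of the 13 had p under 0.05, 9 higher and 1 lower, against 22.2% of all fitted probes. The 9 include the second Pnpla3 probe and Lipe, which both entered the test through the AAV_Cre channels. With all 8 channels well above background, 9 of 11 had p under 0.05, against 4485 of 18578 probes. The median and the other counts over the 13 were taken with these 2 probes in. The ratio had the same sign on 4 of 4 arrays for 9 of the 13, against 23.3% of all fitted probes, and the 8 levels of the groups did not overlap for 3, against 5.53%. For 0 of the 13 did the sign turn with the dyes, as it did for 26.3% of all fitted probes. For 6 of the 13, of the genes Pnpla3, Pnpla7, Mgll and Lpl, the ratio was further from 0 on both arrays 2 and 4 than on both arrays 1 and 3, against 10.2% of all fitted probes. Of the Pnpla3 probes, the one at base 4520 did so and the one at base 1137 did not. This unevenness was noticed in the data and was not tested. Probes of 1 gene read the same RNA and are not independent. In whole-liver RNA, fewer cells of a type and less RNA per cell cannot be told apart.

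**Figure D1:**
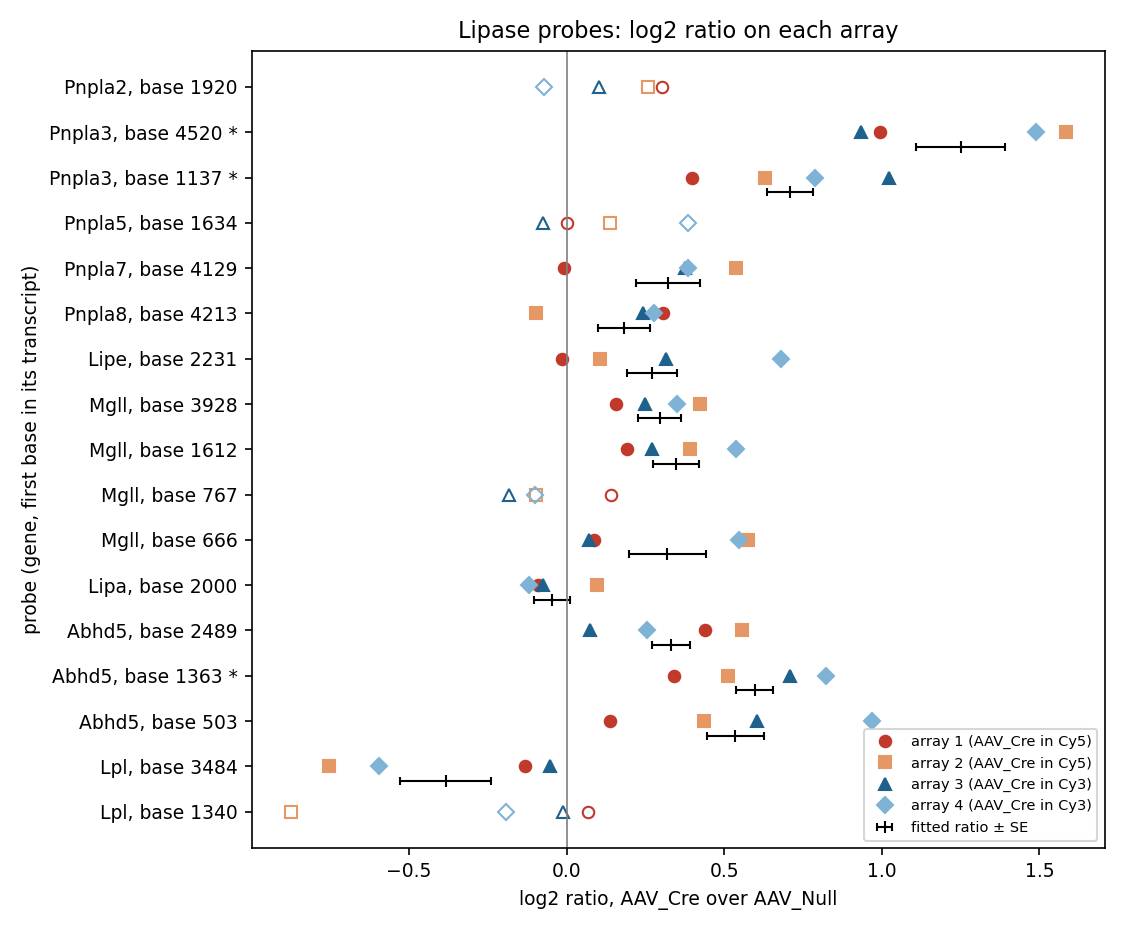
Log2 ratio of AAV_Cre over AAV_Null (x axis) for each of the 17 lipase probes (rows, named by gene and the first base of the probe in its transcript) on each of the 4 arrays, with the fitted ratio ± SE as a black bar under the points. Open symbols are probes that were not fitted or spots marked as outliers, and an asterisk marks an adjusted p under 0.05; both Pnpla3 probes and the Abhd5 probes lie above 0 on 4 of 4 arrays, and the 3 probes with an asterisk are Pnpla3 at bases 4520 and 1137 and Abhd5 at base 1363.

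The results turn on few probes, each a 60-base oligonucleotide that reads 1 short stretch of a transcript. Sequences of 3 of them are shown. Probes of 1 gene gave ratios of different size, and those of Pnpla3 at base 1137 and Abhd5 at base 2489 are not shown. Coordinates are on mm9, as the array files give them. The Abhd5 probe that starts at base 503 of its RefSeq transcript, at chr9:122277200-122277259 on the plus strand, is shown whole. For the Pnpla3 probe at base 4520, at chr15:84019823-84019882, and the Abhd5 probe at base 1363, at chr9:122288857-122288916, the first 30 bases are shown.
Pnpla3, base 4520: gcaaactagtggaacagcagaaggattgaa
Abhd5, base 503: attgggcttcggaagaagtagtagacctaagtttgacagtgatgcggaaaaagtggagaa
Abhd5, base 1363: ctttcctttctcctacacagaattaaaata

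Pnpla3 was read by 2 probes of the same transcript, of which the one at base 4520 carries the result. There, the normalised log2 intensity was 8.14, 8.76, 7.80 and 7.82 in RNA labelled AAV_Cre on arrays 1 to 4, against 7.15, 7.18, 6.87 and 6.33 in RNA labelled AAV_Null. The lowest AAV_Cre level lay above the highest AAV_Null level, so the groups did not overlap. The mean was 8.13 ± 0.45 in AAV_Cre and 6.88 ± 0.39 in AAV_Null (SD, n = 4 each). The log2 ratio was 0.99, 1.58, 0.93 and 1.49 on arrays 1 to 4, and the fitted ratio was 1.25 ± 0.14 (SE, n = 4), with a 95% interval of 0.88 to 1.62, which is 1.84-fold to 3.08-fold (limma, adjusted p = 0.0345). It was about the same in both dye orientations, at 1.29 with AAV_Cre in Cy5 and 1.21 with AAV_Cre in Cy3.

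At base 1137, the level of Pnpla3 was 7.37, 7.57, 7.36 and 7.65 in AAV_Cre and 6.97, 6.94, 6.34 and 6.87 in AAV_Null, with means of 7.49 ± 0.15 and 6.78 ± 0.29 (SD, n = 4 each). These groups did not overlap either. The fitted log2 ratio was 0.71 ± 0.07 (SE, n = 4), with a 95% interval of 0.52 to 0.90, at an adjusted p of 0.0283 in limma. The log2 ratio was above 0 on every array, at 0.40, 0.63, 1.02 and 0.79. It averaged 0.51 with AAV_Cre in Cy5 and 0.91 with AAV_Cre in Cy3. The ratio was highest on array 3, where that at base 4520 was lowest. Levels of all 4 AAV_Cre channels lay above those of all 4 AAV_Null channels for 3.1% of all fitted probes.

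Both Pnpla3 probes were dim, which limits how far the size of the rise can be read. At base 4520, the raw AAV_Cre signal was 412 over a local background of 81.5 on array 1 and 151 over 45.5 on array 4, while the raw AAV_Null signal was 69.5 over 39.0 on array 1 and 132 over 109.5 on array 4. The scanner software called this probe well above background in 4 of 4 AAV_Cre channels and 4 of 4 AAV_Null channels. It called the probe at base 1137 so in 4 of 4 AAV_Cre channels and in 1 of 4 AAV_Null channels. That probe entered the test through the group where it was high, so neither its call nor its lack of overlap adds support. Its AAV_Null level is measured above background on array 4 alone. The offset of 50 added to each signal before the logarithm pulls the ratios of dim probes toward 0. The scanner software's own processed signals, which carry no such offset, gave log2 ratios of 1.96, 2.95, 1.27 and 2.14 at base 4520 and a fitted ratio of 2.08, and a fitted ratio of 1.53 at base 1137. In the authors' deposited table the log2 values of the base 4520 probe were 1.30, 2.06, 0.75 and 1.28, and those of the base 1137 probe were 0.65, 0.88, 0.64 and 0.79.

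**Figure D2:**
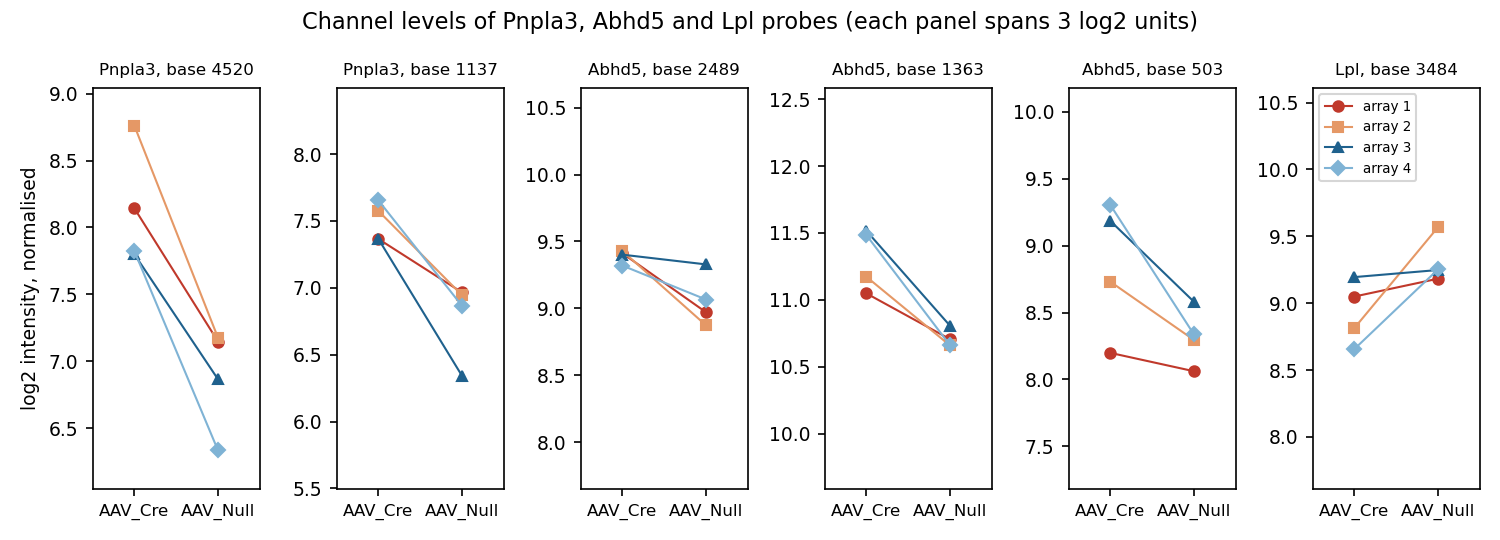
Normalised log2 intensity (y axis, each panel spans 3 log2 units around its own centre) of the 2 Pnpla3 probes, the 3 Abhd5 probes and the fitted Lpl probe in RNA labelled AAV_Cre (left) and AAV_Null (right), with a line for each array. The AAV_Cre and AAV_Null points do not overlap for both Pnpla3 probes and for Abhd5 at base 1363, where AAV_Cre averaged 11.30 and AAV_Null 10.71.

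Abhd5, also called CGI-58, binds and activates Pnpla2 on the droplet surface. It was read by 3 probes of the same transcript, and their ratios were all above 0. At base 1363, the level was 11.05, 11.17, 11.52 and 11.48 in AAV_Cre on arrays 1 to 4, against 10.71, 10.66, 10.81 and 10.66 in AAV_Null, with means of 11.30 ± 0.23 and 10.71 ± 0.07 (SD, n = 4 each). The groups did not overlap. The log2 ratio was 0.34, 0.51, 0.71 and 0.82 on arrays 1 to 4, and the fitted value was 0.60 ± 0.06 (SE, n = 4), with a 95% interval of 0.44 to 0.75, at an adjusted p of 0.0276 in limma.

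The other Abhd5 probes did not pass the threshold. The probe at base 503 had levels of 8.20, 8.73, 9.18 and 9.30 in AAV_Cre and 8.06, 8.30, 8.58 and 8.34 in AAV_Null, which overlap, and a fitted ratio of 0.54 ± 0.09 (SE, n = 4) at an adjusted p of 0.0667 in limma. The probe at base 2489 had levels of 9.41, 9.43, 9.40 and 9.32 in AAV_Cre and 8.97, 8.87, 9.33 and 9.07 in AAV_Null, where the groups met at their edges, and a ratio of 0.33 ± 0.06 (SE, n = 4; limma, adjusted p = 0.0742). The probes differed in how their ratios fell across the arrays. At base 1363 the ratios averaged 0.77 on arrays 3 and 4 and 0.43 on arrays 1 and 2, and at base 503 they averaged 0.79 on arrays 3 and 4 and 0.29 on arrays 1 and 2. At base 2489 the order was the other way, with 0.16 on arrays 3 and 4 and 0.50 on arrays 1 and 2. The dye effect had an adjusted p of 0.177, 0.188 and 0.183 in limma for the probes at bases 1363, 503 and 2489.

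Pnpla2, the lipase that Abhd5 activates, gave no test. Its single probe was well above background in all 8 channels, with a log2 level of 14.61, 14.50, 14.41 and 14.45 in AAV_Cre and 14.31, 14.24, 14.31 and 14.52 in AAV_Null, and the groups overlapped. The scanner software marked its spot as an outlier on arrays 2 and 3, which left too few arrays for the fit. The log2 ratio was 0.30 and -0.07 on the unmarked arrays 1 and 4, and 0.26 and 0.10 on the marked arrays 2 and 3. With the marked spots kept, the fitted ratio was 0.15 at an adjusted p of 0.224 in limma.

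Lipe, the hormone-sensitive lipase, was dim and did not pass. Its log2 level was 7.31, 7.47, 7.03 and 7.07 in AAV_Cre and 7.32, 7.36, 6.71 and 6.39 in AAV_Null, and it was well above background in 4 of 4 AAV_Cre channels and 2 of 4 AAV_Null channels. Lipe thus entered the test through the AAV_Cre channels. The groups overlapped, and the log2 ratio was -0.02, 0.11, 0.32 and 0.68 on arrays 1 to 4. The fitted ratio of 0.27 ± 0.08 (SE, n = 4) had an adjusted p of 0.152 in limma. Its sign turned when the background was not corrected (-0.088), with the scanner software's processed ratio (-0.173) and in a fit of the authors' deposited table (-0.094), so no direction is given for Lipe.

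Mgll, monoglyceride lipase, which also degrades the endocannabinoid 2-arachidonoylglycerol, was read by 4 probes of 2 RefSeq transcripts. At base 3928 its log2 level was 14.35, 14.50, 14.66 and 14.26 in AAV_Cre and 14.19, 14.08, 14.41 and 13.91 in AAV_Null, and at base 1612 it was 11.68, 12.06, 11.99 and 11.96 in AAV_Cre and 11.49, 11.67, 11.71 and 11.43 in AAV_Null. The groups overlapped at both positions, at base 1612 by 1 AAV_Cre level that lay just under the highest AAV_Null level. The fitted ratios were 0.30 ± 0.07, 0.35 ± 0.07 and, at base 666 of the other transcript, 0.32 ± 0.12 (SE, n = 4), at adjusted p of 0.105, 0.0933 and 0.226 in limma. These 3 probes were above 0 on 4 of 4 arrays, as were 12.1% of all fitted probes. The fourth Mgll probe, at base 767, was not well above background in any of the 8 channels.

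Pnpla7, a lysophospholipase of the endoplasmic reticulum and lipid droplets, had log2 ratios of -0.01, 0.54, 0.38 and 0.39 on arrays 1 to 4 and a fitted ratio of 0.32 ± 0.10 (SE, n = 4) at an adjusted p of 0.169 in limma. Its level was 12.38 to 12.85 in AAV_Cre and 12.17 to 12.47 in AAV_Null, which overlap. The 60 bases of its probe span 232 bases of chromosome 2, at 24908961 to 24909192, so the probe crosses an exon junction. Pnpla8, a calcium-independent phospholipase of mitochondria and peroxisomes, had log2 ratios of 0.31, -0.10, 0.24 and 0.28 and a fitted ratio of 0.18 ± 0.08 at an adjusted p of 0.283, with levels of 7.64 to 7.99 in AAV_Cre and 7.51 to 7.74 in AAV_Null. For Pnpla5, a droplet lipase linked to autophagy that neighbours Pnpla3 on chromosome 15, 0 of 8 channels were well above background, and its ratios of 0.00, 0.14, -0.08 and 0.39 carry no direction.

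Lipa, the only acid lipase of the set, was well above background in all 8 channels and had a ratio near 0. Its log2 level was 11.42, 11.67, 11.89 and 11.86 in AAV_Cre and 11.51, 11.57, 11.96 and 11.98 in AAV_Null, and the groups overlapped almost wholly. The fitted ratio was -0.05 ± 0.06 (SE, n = 4), with a 95% interval of -0.20 to 0.10, which is 0.872-fold to 1.07-fold (limma, adjusted p = 0.675). A change of the size seen for Pnpla3 or Abhd5 lies outside that interval.

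Lpl, which frees fatty acids from circulating lipoproteins and which adult hepatocytes normally express little of, had the lowest fitted ratio of the members and did not pass. At base 3484 its log2 level was 9.05, 8.81, 9.20 and 8.66 in AAV_Cre on arrays 1 to 4, against 9.18, 9.57, 9.25 and 9.25 in AAV_Null. The highest AAV_Cre level lay just above the lowest AAV_Null level. The log2 ratio was -0.13, -0.75, -0.05 and -0.60, so arrays 2 and 4 carried most of it, and the fitted ratio was -0.38 ± 0.14 (SE, n = 4), which is 0.766-fold (limma, adjusted p = 0.219). A separate-channel fit gave the same ratio an adjusted p of 0.0461. A second Lpl probe, at base 1340, was too dim to fit and had -0.87 and -0.19 on arrays 2 and 4 and 0.07 and -0.01 on arrays 1 and 3. Kupffer cell and macrophage markers, a cell type that expresses Lpl, were fitted for 8 of 8 genes, and 0 passed. Their median log2 ratio was -0.33, -0.29, 0.29 and -0.65 on arrays 1 to 4, and their summed linear intensity ran from 28939 to 55366 in AAV_Cre and from 40461 to 63505 in AAV_Null; their part in the Lpl values was not tested.

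**Figure D3:**
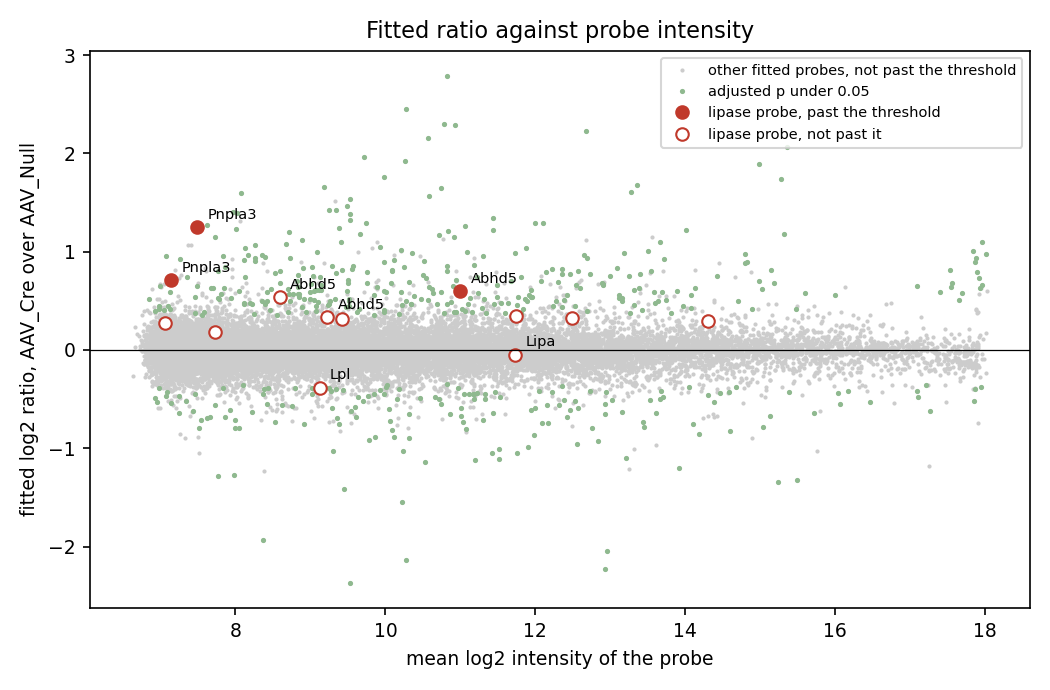
Fitted log2 ratio of AAV_Cre over AAV_Null (y axis) against the mean log2 intensity of the probe (x axis) for all 20337 fitted probes, with the 13 fitted lipase probes ringed (filled where the adjusted p was under 0.05). The Pnpla3 probes stand above 0 at the dim end of the array, at mean log2 intensities of 7.49 and 7.14, and the called Abhd5 probe lies at 11.00.

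The calls rested on all 4 arrays. When any 1 array was left out, 0 member probes were past the threshold, and 0, 0, 43 and 0 probes of the whole array were past it without arrays 1, 2, 3 and 4. The size of the ratios held better than their p-values: leaving out 1 array kept Pnpla3 at base 4520 between 1.103 and 1.398 with an adjusted p of 0.0797 to 0.190, Pnpla3 at base 1137 between 0.65 and 0.77 with 0.0870 to 0.190, and Abhd5 at base 1363 between 0.55 and 0.64 with 0.0832 to 0.192 (limma). At a normexp offset of 16 in place of 50, the Pnpla3 ratios were larger, at 1.59 and 0.97, but missed the threshold at adjusted p of 0.0567 and 0.0520. The Abhd5 probe at base 1363 missed it without a dye effect, at an adjusted p of 0.0502 in limma.

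**Figure D4:**
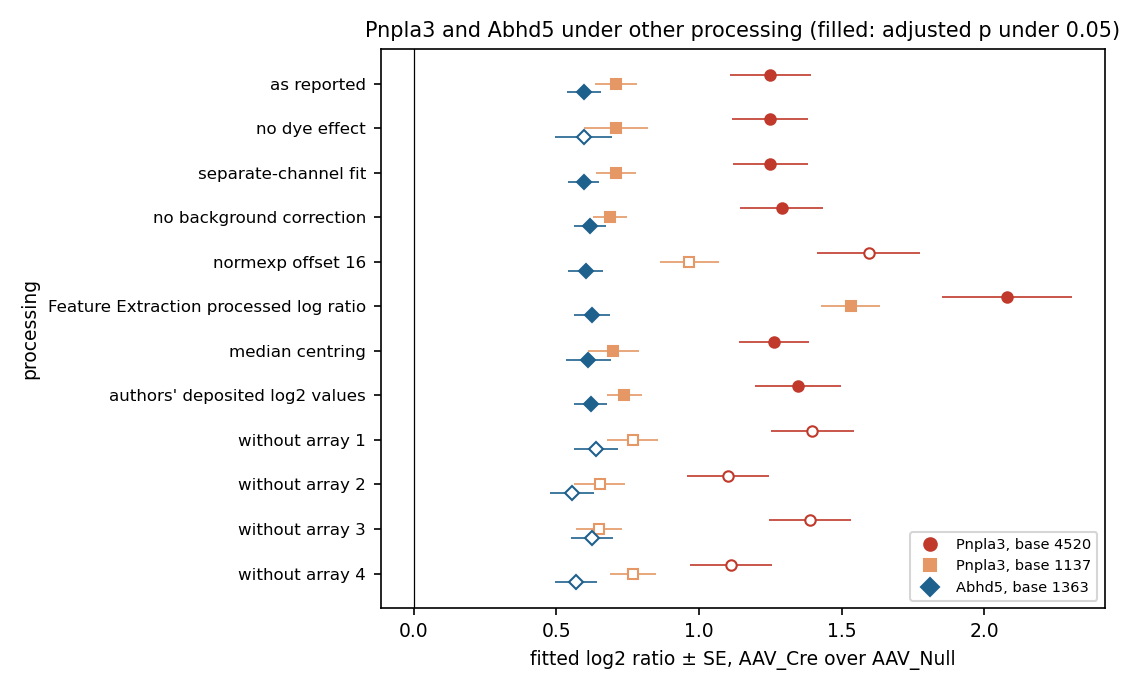
Fitted log2 ratio ± SE of AAV_Cre over AAV_Null (x axis) for the Pnpla3 probes at bases 4520 and 1137 and the Abhd5 probe at base 1363 as reported and under 11 other ways of processing (rows), filled where the adjusted p was under 0.05. Every ratio stays above 0; symbols turn open at an offset of 16 for Pnpla3, without a dye effect for Abhd5, and for all 3 probes without any 1 array.

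The genes around the lipases were described in 6 lists of 95 genes, of which 87 could be fitted by their brightest probe. Among them 6 rose and 0 fell with p adjusted over all fitted probes, against 1.55% of those probes called higher and 0.821% called lower. With p adjusted over 1 probe a gene, 6 were called higher and 1 lower, against 1.78% and 0.976% of all fitted genes. The median log2 ratio of the 87 was 0.03. Without any 1 array, 0 list genes were past the threshold. The protein list of the droplet surface held 2 of the 6 that rose among 13 fitted genes. Cidec, which joins lipid droplets into larger ones, had log2 ratios of 1.19, 1.73, 1.33 and 1.30 on arrays 1 to 4 and a fitted ratio of 1.39 ± 0.10 (SE, n = 4) at an adjusted p of 0.0188 in limma. Fitm1, which helps to form droplets, had 0.66 ± 0.06 at an adjusted p of 0.0258. The direct modifiers of Pnpla2 did not pass: its inhibitor G0s2 had 0.65, 0.41, -0.39 and 1.05 on arrays 1 to 4, its inhibitor Hilpda had a fitted 0.17 ± 0.07, and the coat protein Plin2 had 0.18 ± 0.08. Plin5, which holds Pnpla2 and Abhd5 at the droplet, had 0.12 ± 0.11.

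Among 17 other neutral and patatin-like lipases, Nceh1 rose, a hydrolase of cholesteryl esters and ether lipids, with a fitted ratio of 0.51 ± 0.06 (SE, n = 4) at an adjusted p of 0.0341 in limma. The other 16 did not pass; they include Abhd6, a second monoglyceride lipase, with 0.22 ± 0.10, and Pnpla6, the closest relative of Pnpla7, with -0.12 ± 0.07. Among 14 carboxylesterases and related hydrolases of the endoplasmic reticulum, Ces2b rose by 1.29 ± 0.17 and Ces2c by 0.50 ± 0.07, at adjusted p of 0.0426 and 0.0435. Other Ces2c probes had 0.99 and 1.22, both past the threshold. Ces1d, a liver triglyceride hydrolase, had -0.30 ± 0.06 at an adjusted p of 0.0940 and did not pass. Whether a probe reads more than 1 Ces gene was not checked and is uncertain. Without a dye effect, Nceh1 and Ces2c missed the threshold, at adjusted p of 0.122 and 0.179 in limma.

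No gene passed in the other lists of enzymes. Among 17 partners of Lpl and vascular lipases, the smallest p was that of Lipg, endothelial lipase, at 0.52 ± 0.09 (SE, n = 4) with an adjusted p of 0.0635 in limma. Among the inhibitors of Lpl, Angptl8 had 0.80 ± 0.14 and Angptl4 0.01 ± 0.05. Among 12 lysosomal genes, around Lipa, the smallest p was that of the protease Ctsd, at 0.27 ± 0.05 with an adjusted p of 0.0752. Of 14 regulators of lipolysis and its genes, 1 rose: Pparg, a nuclear receptor that turns on fat storage genes, with 0.62 ± 0.06 at an adjusted p of 0.0250. Srebf1, the gene of SREBP-1c, had 0.01 ± 0.06 and Ppara -0.12 ± 0.06. Mlxipl, the gene of ChREBP, had 0.13 ± 0.07 by its brightest probe and -0.18 by its other fitted probe. Foxo1, which raises Pnpla2 in fasting, had 0.16 ± 0.10.

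**Figure D5:**
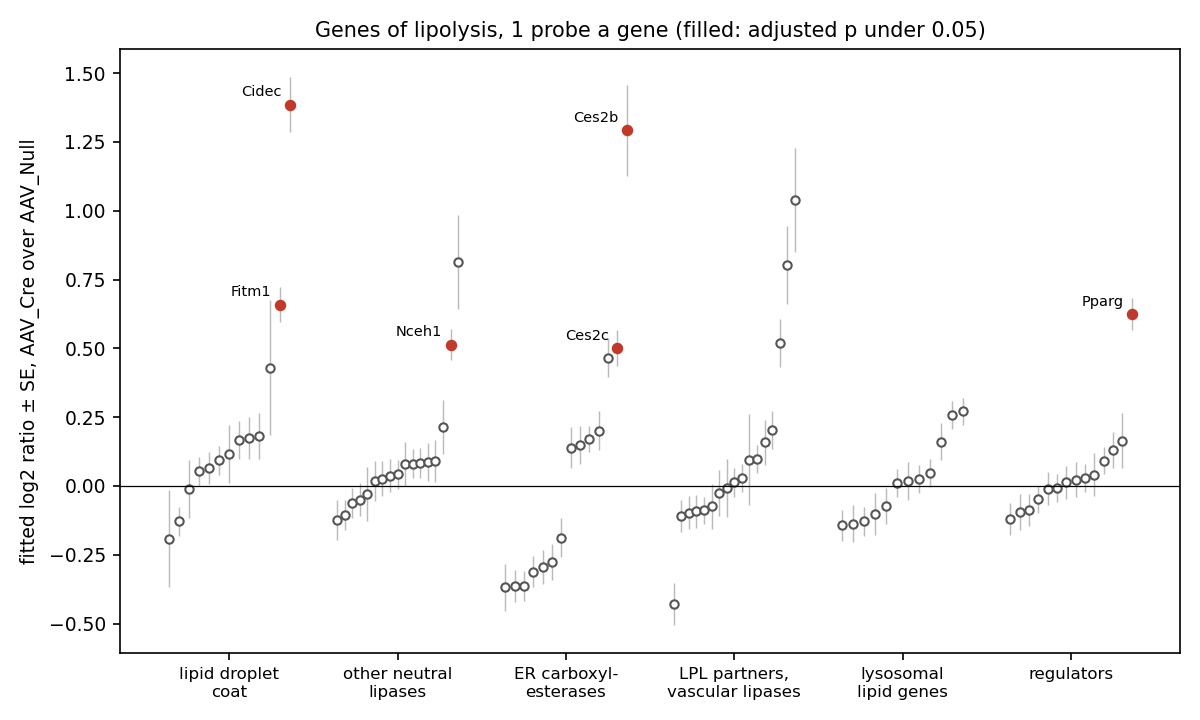
Fitted log2 ratio ± SE of AAV_Cre over AAV_Null (y axis) for the 87 fitted genes of 6 lists around the lipases (x axis), 1 probe a gene and sorted within each list, filled where the adjusted p was under 0.05. The 6 filled genes are Cidec, Fitm1, Nceh1, Ces2b, Ces2c and Pparg, all above 0, and the genes of the lists of Lpl partners and lysosomal lipid genes are all open.

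Adipocytes hold much Pnpla2, Lipe, Mgll and Cidec, so their markers were read beside these genes. The defining markers Adipoq, Cfd, Lep and Plin1 were well above background in 0 of 8 channels. The other 4 of 8 were fitted and 0 passed, with log2 ratios of 0.75 ± 0.16 for Retn, 0.30 ± 0.05 for Fabp4, -0.01 ± 0.11 for Cidea and -0.25 ± 0.08 for Pck1 (SE, n = 4). A dimmer fitted probe of Retn had 0.13. The summed linear intensity of the fitted markers was 112207 to 160005 in AAV_Cre and 146420 to 169479 in AAV_Null. Pck1, which hepatocytes express for gluconeogenesis, made up 97.8% to 99.3% of that sum, and without it the sum was 1643 to 2500 in AAV_Cre and 1220 to 2042 in AAV_Null. The 4 skeletal muscle markers were likewise well above background in 0 of 8 channels. Endothelial markers were fitted for 6 of 6 genes and 0 passed. Before adjustment, 4 of these 6 had p under 0.05 in limma, against 22.2% of all fitted probes. Those were Clec4g at -0.35, Stab2 at -0.31, Kdr at -0.20 and Lyve1 at 0.29. Of 4 fitted stellate cell markers 1 rose, the collagen gene Col3a1, at 0.47. The part of these cell types in the values of the lipase genes was not tested.

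The genes whose ratios over the 4 arrays lay nearest to those of Pnpla3 at base 4520, among 12097 genes and by Euclidean distance, were Elovl3, Vnn1, Morc4, Me1 and Lmo4. Elovl3, an elongase of very long fatty acids, was nearest, at a distance of 0.27, with log2 ratios of 0.94, 1.54, 1.07 and 1.27 on arrays 1 to 4. Vnn1, a pantetheinase, lay at 0.34, Morc4 at 0.35, Me1, malic enzyme, at 0.47 and Lmo4 at 0.50. The distance is a description of 4 arrays and has no test. The Pnpla3 probe at base 1137 had another pattern over the arrays, at 0.40, 0.63, 1.02 and 0.79.

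RefSeq promoter windows on GRCm38.p6, from 250 bases before to 50 bases after a gene's start, were found for 9 of the 10 genes, in 11 windows of 300 bases. Both strands were searched for 7 motifs: TTGCNNAA for C/EBP, TCACNCCAC for SREBP, CACGTG for an E-box, TGTTTAC for FoxO, TATAAA for a TATA box, TGACGTCA for the cAMP response element and CCAAT. The last 2 were added after the Pnpla3 window had been read. The C/EBP motif was in 0 of the 11 windows and in 10.8% of 32851 windows of all genes. No window of a member held TCACNCCAC, in 1.24% of all windows. The windows of the 2 genes that rose are shown. That of Pnpla3, chr15:84167566-84167865 on the plus strand, holds TGACGTCA from base 205, a motif in 1.79% of all windows, and CCAAT on the reverse strand from base 152, in 37.4% of them; both are in capitals. That of Abhd5, chr9:122351366-122351665 on the plus strand, holds none of the 7. These matches are descriptions of the letters in a short window and not of bound sites.
Pnpla3 promoter: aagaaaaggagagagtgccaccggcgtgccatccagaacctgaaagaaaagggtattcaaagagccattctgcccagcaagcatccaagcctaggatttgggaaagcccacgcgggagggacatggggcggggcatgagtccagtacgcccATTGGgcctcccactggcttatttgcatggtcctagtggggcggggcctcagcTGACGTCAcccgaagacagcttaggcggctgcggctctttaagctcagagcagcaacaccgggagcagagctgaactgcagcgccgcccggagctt
Abhd5 promoter: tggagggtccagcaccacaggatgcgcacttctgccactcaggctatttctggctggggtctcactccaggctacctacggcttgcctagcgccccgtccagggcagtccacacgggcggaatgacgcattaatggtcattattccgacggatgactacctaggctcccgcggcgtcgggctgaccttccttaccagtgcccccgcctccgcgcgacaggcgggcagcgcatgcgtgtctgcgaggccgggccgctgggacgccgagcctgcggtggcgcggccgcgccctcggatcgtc
Among the members that did not pass, the E-box CACGTG, in 7.15% of all windows, stood in windows of Lipe, Mgll, Pnpla5 and Pnpla7, and TGTTTAC, in 3.65%, stood in windows of Lipe, Mgll and Pnpla7.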

How the data were processed

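The scanner files hold spot intensities of both dyes with their local backgrounds, made with Agilent Feature Extraction (version 11.5.1.1 per the file headers). They also hold processed intensities and a log10 ratio, Cy5 over Cy3, from which the local background had been subtracted and which had been balanced between the dyes, per the file headers. The authors also deposited log2 values; the submitters' processing notes name limma, with no steps. Against the scanner log10 ratio, the deposited log2 values had slopes of 3.34, 3.33, -3.29 and -3.39 on arrays 1 to 4 (the log2 of 10 is 3.32) and medians of -0.022, -0.038, 0.035 and 0.041. They are thus AAV_Cre over AAV_Null on each array, and their centring is not given in the sources used here.

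Here the mean intensities and median backgrounds were taken through normexp (offset 50) and loess within arrays in limma 3.58.1 (R 4.3.3). Control spots had weight 0, spots marked as outliers were left out, and spots of a probe were averaged. A probe was fitted if at least 3 of the 4 channels of either group were well above background and at least 3 arrays, with both orientations, had an unmarked spot. The log2 ratio was fitted with a treatment and a dye effect (lmFit, eBayes), with 2 residual and 2.66 prior degrees of freedom. P-values are two-sided, with Benjamini-Hochberg adjustment over 20337 probes, and 0.05 was the threshold. Precision is limited by the number of arrays, 4, and the median SE was 0.06. The p-values cover the spread between arrays of the same orientation, which may be technical. Levels are log2 intensities after loess and Aquantile, and include the offset. In lists, a gene's brightest probe stood for it.

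The members, lists and alternatives were chosen with earlier results of these data known. Every member probe is accounted for. Named list genes are, per list, those called, or that of smallest p; other genes named there were chosen after their values were seen, for their roles. The fit was tested on simulated data. The alternatives left out the dye effect, fitted the channels separately with statmod 1.5.0, changed the background correction, normalisation, filters and eBayes settings, used the deposited values or left out each array. The labels give 2 labelling procedures without saying which one was run. Symbols and promoter sequences are from RefSeq (GRCm38.p6).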

Additional observations from a re-analysis of the deposited data

Results flagged for a closer look

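Pnpla8 had a log2 ratio of -0.10 on array 2, apart from 0.24 to 0.31 on the other 3 arrays, with a gap of 0.842 of the whole range. Chance alone sets about 1 in 20 results apart in this way, or 1.25 of the 25 results tested. Ctsd, the lysosomal protease of the list around Lipa, had log2 ratios of -0.12 and -0.09 on arrays 1 and 2, where AAV_Cre was in Cy5. On arrays 3 and 4, where AAV_Cre was in Cy3, it had 0.68 and 0.62, a difference of -0.76 between the orientations. The signs were opposite on every array of the 2 orientations, as for 26.3% of all fitted probes. The dye effect that measures this difference had an adjusted p of 0.0505 in limma.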

How the results depend on the processing

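Against 3 called member probes, 6 called list genes and 483 called probes of the whole array, the counts were 9 (8 higher and 1 lower), 19 and 3059 in a separate-channel fit, which treats the 8 channels as samples, 6, 17 and 1645 without background correction, 1, 3 and 221 at an offset of 16, 5, 12 and 873 with median centring, 7, 18 and 1441 with an intensity trend in eBayes, 6, 17 and 1641 in the authors' deposited log2 values, and 6, 18 and 1466 at an adjusted p of 0.10. The called list genes were 12 higher and 7 lower in the separate-channel fit and 12 and 5 without background correction. They were 11 and 1 with median centring, 11 and 7 with an intensity trend, and 12 and 5 in the deposited values. At an adjusted p of 0.10 they were 13 and 5, and at an offset of 16 they were 3 and 0. The whole-array count alone moved by over 1.5 times without a dye effect (302), with the Feature Extraction processed ratio (879) and without a filter on dim probes (302, among more probes tested). Leaving out 1 array gave 0 called member probes and 0 called list genes each time and 0 to 43 probes over the whole array, while 7 to 10 member probes had an unadjusted p under 0.05. Higher calls were 51.9% of all calls in the separate-channel fit and 65.4% as reported. Lipe turned sign without background correction (-0.088), with the processed ratio (-0.173) and in the deposited values (-0.094); no other fitted member changed sign under the settings tried. With 1 array left out, ratios that moved by over 1.5 times were those of Pnpla8 (0.08 to 0.28), Lpl (-0.54 to -0.23), Pnpla7 (0.19 to 0.46), Mgll at base 666 (0.20 to 0.44), Lipe (0.18 to 0.36) and Lipa (-0.09 to -0.00039). Dim signal limits Pnpla3 and Lipe, and leaves Pnpla5 without a measurement. The cause of these shifts was not tested. The ratio pairs the groups by array. No other pairing was possible, because the labels give no other replicate number shared by samples of both groups.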

Other observations

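The carboxylesterases of the endoplasmic reticulum split by subfamily. Among the fitted genes of Ces2, 5 of 5 had a ratio above 0 on 4 of 4 arrays, as had 12.1% of all fitted probes. Their median log2 ratio was 0.47 and 2 were called, against 2.37% of all fitted probes called in either direction. Among the fitted genes of Ces1, 5 of 6 had a ratio below 0, with a median of -0.29 and 0 called. Ces3a and Ces3b had -0.31 and -0.36, with adjusted p of 0.0765 and 0.0534 in limma. Ces1f, at 0.15, was the exception in Ces1. This grouping was made after the values were seen, the probes may read more than 1 copy, and the difference between the subfamilies was not tested.

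Lipn, a lipase of the list of neutral lipases, had ratios of -0.07, 0.47, 1.85 and 1.01 on arrays 1 to 4 and did not pass. Vldlr, a receptor of the list of Lpl partners, had 1.68, 1.28, 0.08 and 1.12. Its fitted ratio of 1.04 ± 0.19 (SE, n = 4) did not pass either (limma, adjusted p = 0.0745). The other fitted Vldlr probe had 0.14.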
